A study of Mus musculus with 258 samples.

Results

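The 9 genes described here encode proteins that hold back the cell cycle or stop it: the cyclin-dependent kinase inhibitors Cdkn1a (p21), Cdkn1b (p27), Cdkn1c (p57), Cdkn2c (p18) and Cdkn2d (p19), the growth arrest genes Gadd45a and Gadd45g, and the antiproliferative genes Btg1 and Btg2. They were taken by symbol from the gene count tables, and all 9 were found among the 40824 genes listed. The question was how each of them stands before, during and after the burst of Neurog3 that makes a pancreatic progenitor an endocrine cell, and which of them goes with Neurog3 from cell to cell.

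Bulk RNA came from 3 sorted mouse populations, each in 2 libraries. Cells with low and with high reporter signal, the Ngn3-low and Ngn3-high groups, were sorted from E13.5 (embryonic day) dorsal pancreas by an Ngn3-GFP reporter of the Neurog3 gene, and Ins1-RFP+ cells, called nascent β-cells in the study's design, were sorted from E17.5 pancreas by a red reporter of Ins1. RNA was also sequenced from single E13.5 dorsal pancreas cells in 4 groups: 49 Ngn3-low and 59 Ngn3-high cells of WT embryos, and 69 Ngn3-low and 44 Ngn3-high cells of Pdx1-Cre; Jmjd3 fl/fl embryos, called Jmjd3-deleted below. Jmjd3, the product of Kdm6b, removes methyl groups from lysine 27 of histone H3, and the Pdx1 promoter drives the Cre recombinase in progenitors of the pancreas. No Cre is named for WT embryos, so its effect cannot be told apart from that of the deletion. The Ins1-RFP+ cells also differ from the others in age and reporter, and stage, age and sort cannot be told apart in that step.

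Bulk libraries held 11957415 to 17760214 reads in genes, and single cells held 380478 to 1949839, with a median of 708409. Replicate libraries of a group differed by more than counting noise (chi-square per degree of freedom 13.8 to 62.9), and the labels do not say that they came from separate litters, so a p-value here rests on library-to-library spread alone, which may be technical. Kdm6b stood at 131 CPM (counts scaled by the library total of reads in genes) in WT Ngn3-low and 265 CPM in WT Ngn3-high cells, against 55.5 and 107 CPM in the Jmjd3-deleted groups. The whole gene was counted, so transcripts that lost only the floxed part still count. Epithelial markers were high in every bulk library, with sums of 2051.8 to 2752.9 CPM. Markers of white blood cells summed to 3289 and 2748 CPM in the Ngn3-low libraries, 16.8 and 9.20 CPM in the Ngn3-high libraries and 71.4 and 134 CPM in the Ins1-RFP+ libraries. In the single cells, where each profile is 1 cell, the same 11 markers summed to 4.53 to 12.1 CPM per group. Acinar markers summed to 22660 CPM in Ins1-RFP+ library 2, against 1320 CPM in library 1. In bulk samples, fewer cells of a type and less RNA per cell cannot be told apart.

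Cyclin-dependent kinases drive a cell through its cycle, and the 2 inhibitor families block them in different ways. The Cip/Kip proteins (p21, p27 and p57) bind complexes of cyclin and kinase, chiefly those of Cdk2, while the INK4 proteins (p18 and p19 among them) bind Cdk4 and Cdk6 and keep D-type cyclins off. Gadd45 proteins respond to stress and differentiation signals and bind, among others, p21 and the mitotic kinase Cdk1, and Btg proteins recruit the machinery that shortens poly(A) tails of messenger RNA. In the embryonic pancreas, progenitors divide, cells that switch on Neurog3 largely leave the cycle, and newborn β cells later divide again.

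The promoters of 3 members are shown because the cell-to-cell results below turn on them: Cdkn1a and Gadd45g went with Neurog3, and Cdkn1b did not. Sequences are from RefSeq on build GRCm38.p6, each 250 bases long, 5′ to 3′ on the gene's strand, and end at the base before the annotated start. Capitals mark E-boxes (CANNTG, the core that Neurog3 and other basic helix-loop-helix proteins bind) and p53 half-sites. The first Cdkn1a start is at chr17:29090729-29090978 (+ strand), the second at chr17:29093519-29093768 (+), Gadd45g at chr13:51846425-51846674 (+) and Cdkn1b at chr6:134920151-134920400 (+).
Cdkn1a, first start: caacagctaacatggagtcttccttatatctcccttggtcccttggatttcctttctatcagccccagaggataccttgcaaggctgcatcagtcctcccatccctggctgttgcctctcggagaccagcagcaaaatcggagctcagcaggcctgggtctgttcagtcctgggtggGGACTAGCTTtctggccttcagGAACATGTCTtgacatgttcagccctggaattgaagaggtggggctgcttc
Cdkn1a, second start: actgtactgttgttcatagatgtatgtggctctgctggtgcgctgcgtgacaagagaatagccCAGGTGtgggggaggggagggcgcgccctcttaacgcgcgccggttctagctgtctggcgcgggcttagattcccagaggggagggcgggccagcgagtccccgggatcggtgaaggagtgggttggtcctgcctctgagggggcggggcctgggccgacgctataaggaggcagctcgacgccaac
Gadd45g: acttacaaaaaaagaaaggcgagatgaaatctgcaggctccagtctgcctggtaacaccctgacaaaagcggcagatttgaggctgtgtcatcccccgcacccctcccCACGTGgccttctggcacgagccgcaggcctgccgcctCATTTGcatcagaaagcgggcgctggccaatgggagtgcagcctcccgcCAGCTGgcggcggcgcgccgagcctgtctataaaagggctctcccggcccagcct
Cdkn1b: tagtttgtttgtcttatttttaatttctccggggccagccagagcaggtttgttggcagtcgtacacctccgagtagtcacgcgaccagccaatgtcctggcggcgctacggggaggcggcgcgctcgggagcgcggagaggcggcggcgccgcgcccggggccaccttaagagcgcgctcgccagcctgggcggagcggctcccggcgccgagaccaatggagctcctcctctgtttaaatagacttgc
The Gadd45g window held 3 E-boxes, the second Cdkn1a window held 1, and the first Cdkn1a window and the Cdkn1b window held 0. Of windows not shown, that of Gadd45a held 1 and that of Btg2 held 0. The first Cdkn1a window held 2 matches to the p53 half-site. The table had promoters for 8 of the 9 members, all but Cdkn1c, with 10 windows in all. CANNTG was found in 3 of the 10 windows (Gadd45g, the second of Cdkn1a, and Gadd45a), against 66.2% of 32851 promoters of the same length. The spelling CAGATG, searched on both strands, was in 0 of the 10 windows and in 14.4% of all promoters. CAGCTG, which like every match here also counts as a CANNTG, was in 1 of 10 and in 13% of all promoters. The p53 half-site was in 3 of 10 (Cdkn1a, Cdkn2d and Gadd45a) and in 7.13% of all promoters. These are letters in a window and say nothing of binding.

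On the same build, Cdkn1a lies on chromosome 17 at 29090979 to 29100722, Cdkn1b on chromosome 6 at 134920401 to 134925525 and Cdkn1c on chromosome 7 at 143458339 to 143461059. Cdkn2c lies on chromosome 4 at 109660876 to 109666756 and Cdkn2d on chromosome 9 at 21288459 to 21291421. Gadd45a (chromosome 6, 67035096 to 67037407) and Gadd45g (chromosome 13, 51846675 to 51848475) are apart from each other, as are Btg1 (chromosome 10, 96617001 to 96622813) and Btg2 (chromosome 1, 134074865 to 134079155).

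When Ngn3-high cells were compared with Ngn3-low cells (the first step), 6 of the 9 genes rose, 2 fell and 1 did not pass the test (edgeR, adjusted p under 0.05 over 15684 genes). Of all genes tested, 27.7% rose and 30.2% fell (57.9% in either direction). The count of falls is thus near the background, and 6 rises of 9 stand against 27.7%. The 9 genes were chosen with earlier results of these data known, so these shares describe the group and do not test it. The median change of the 9 genes was 1.07 on the log2 scale, against -0.01 over all genes tested. Gadd45a rose most, 7.65-fold in CPM. Cdkn2c fell most, 22.1-fold, to a low level. It was at 0.652 and 0.585 CPM in the Ngn3-high libraries, where 3 reads equal 0.178 and 0.251 CPM.

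In the second step, Ins1-RFP+ against Ngn3-high cells, 2 genes rose, 3 fell and 4 did not pass, where 26.1% of all genes rose and 24.9% fell (50.9% in either direction). The median of the 9 was 0.36, against 0.01 over all genes. Between the ends of the series, Ins1-RFP+ against Ngn3-low, 4 rose, 2 fell and 3 did not pass, against 30.4% and 35.5% of all genes (66% in either direction), with a median of -0.16 against -0.08 over all genes. The 3 comparisons share libraries, so their values are set side by side below and not correlated. The bulk levels of the 9 genes fall into several courses: a peak in Ngn3-high cells, a rise that stayed, a late loss and a dip.

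**Figure D1:**
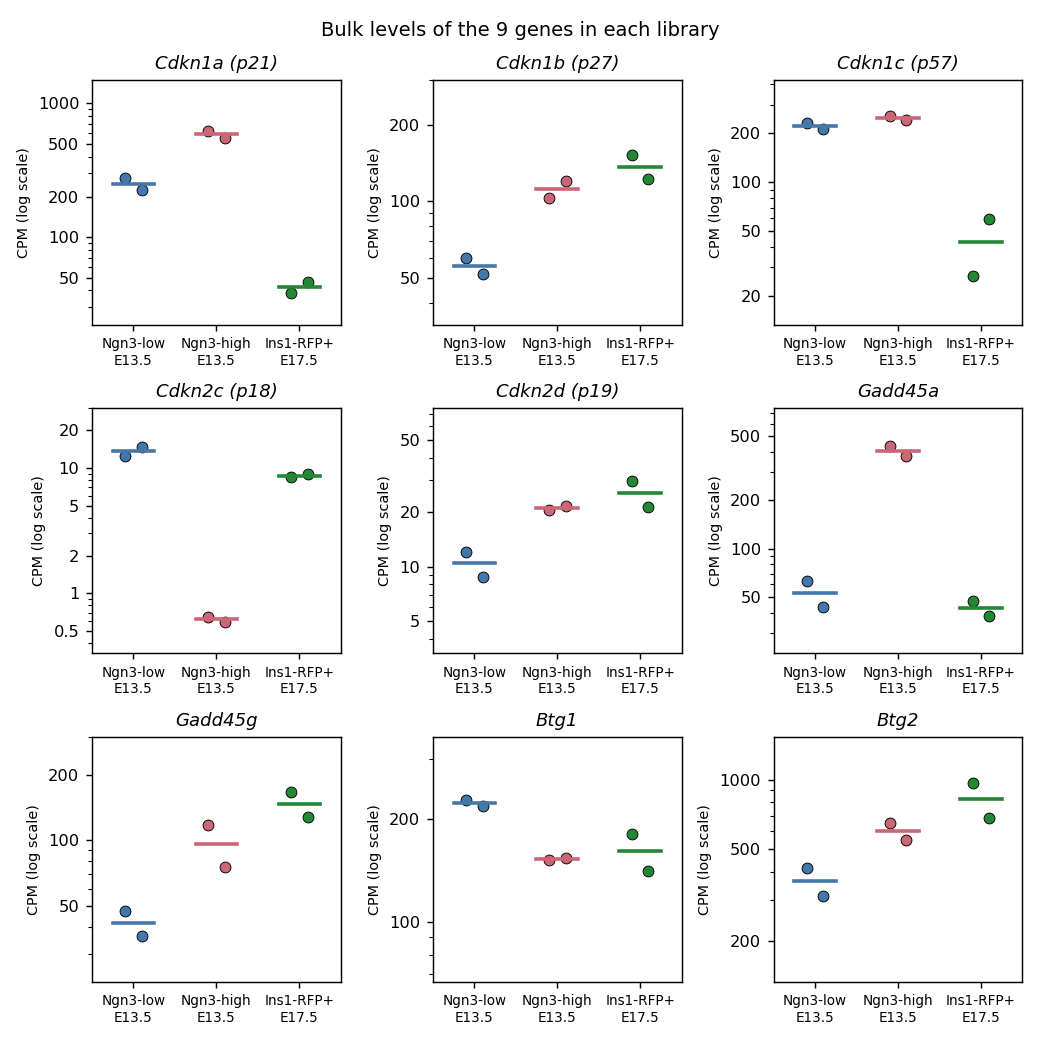
Level of each of the 9 genes in the 6 bulk libraries, in CPM on log axes that differ between panels. Points are libraries and bars are means of 2. Cdkn1a and Gadd45a are highest in Ngn3-high cells, Cdkn2c is lowest there at 0.652 and 0.585 CPM, and Cdkn1c is lowest in Ins1-RFP+ cells.

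Cdkn1a, whose product p21 is the best-known target of p53, peaked in Ngn3-high cells. Its level was 276 and 226 CPM in the 2 Ngn3-low libraries, 626 and 549 CPM in the Ngn3-high libraries and 38.2 and 46.2 CPM in the Ins1-RFP+ libraries. No 2 groups overlapped. It rose by 1.31 on the log2 scale from Ngn3-low to Ngn3-high (SE 0.156, edgeR adjusted p = 0.000148). It then fell by 3.72 (SE 0.173, edgeR adjusted p = 3.45e-06), to 13.9-fold below Ngn3-high and 5.95-fold below Ngn3-low. Both steps passed under all 12 alternatives run for each.

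Cdkn1b encodes p27, a brake on β cell division after birth. Its level was 59.9 and 52.02 CPM in the pair of Ngn3-low libraries, 103 and 119.9 CPM in the Ngn3-high pair and 152 and 122 CPM in the Ins1-RFP+ pair. It rose by 1.07 in the first step (SE 0.149, edgeR adjusted p = 0.000359), and it stood 2.45-fold above Ngn3-low in Ins1-RFP+ cells (log2 1.46, edgeR adjusted p = 4.91e-05). The second step did not pass (0.38, SE 0.146, edgeR adjusted p = 0.0562, with adjusted p of 0.0159 to 0.350 over its alternatives), and it passed under 4 of 12 alternatives: DESeq2, median ratio size factors, no filter on low counts, and without Ins1-RFP+ library 2 (0.54, edgeR adjusted p = 0.0182).

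Cdkn1c, an imprinted gene expressed from the maternal copy, encodes p57. It stood at 233 and 213 CPM in the Ngn3-low pair of libraries and 254 and 241 CPM in the Ngn3-high pair, a difference that did not pass (0.24, SE 0.284, edgeR adjusted p = 0.5003). In the Ins1-RFP+ libraries it was at 26.6 and 59.5 CPM, both far below every E13.5 library. The pair itself was far apart. It fell by 2.45 from Ngn3-high (SE 0.304, edgeR adjusted p = 0.000330), by 1.99 without Ins1-RFP+ library 1 and by 3.12 without library 2. Against Ngn3-low it stood at -2.21 (SE 0.301, edgeR adjusted p = 0.000263), at -1.75 without Ins1-RFP+ library 1 and at -2.87 without library 2. Library 2, with the higher Cdkn1c level, is also the one with acinar markers at 22660 CPM and mesenchyme markers at 771 CPM, against 220 CPM in library 1, and their part in the level was not tested. Of 8 listed genes of its imprinted domain, 7 were tested. In the second step 3 of the 7 rose, 1 fell and 3 did not pass, and the named rises were Kcnq1, a potassium channel gene (8.96 to 25.4 CPM), and Tssc4 (56.4 to 109.6 CPM).

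Per length, the 3 Cip/Kip genes traded places. Cdkn1a made up 50.7 ± 1.83% of their length-scaled reads in Ngn3-low (SD, n = 2), 66.7 ± 1.73% in Ngn3-high and 29.7 ± 0.185% in Ins1-RFP+ cells. Cdkn1c went from 44.6 ± 1.805% to 27.9 ± 0.804% and then 29.1 ± 12.1%. Cdkn1b made up 4.75 ± 0.0225%, 5.36 ± 0.921% and 41.2 ± 11.9%. In Ins1-RFP+ library 1 Cdkn1b was at 49.7% and Cdkn1c at 20.5%, while in library 2 they were at 32.8% and 37.6%, so the order of these 2 genes in that group differed between its libraries. No test of these shares was made.

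The INK4 genes moved in opposite directions in the first step. Cdkn2c, which encodes p18, was at 12.5 and 14.8 CPM in the pair of Ngn3-low libraries, 0.652 and 0.585 CPM in the Ngn3-high pair and 8.42 and 8.87 CPM in the Ins1-RFP+ pair. It fell by 4.35 (SE 0.268, edgeR adjusted p = 3.34e-06) and rose by 3.86 in the second step (SE 0.271, edgeR adjusted p = 1.84e-05), so both E13.5 and E17.5 neighbours lay more than 10-fold above the Ngn3-high level. Ins1-RFP+ against Ngn3-low did not pass (-0.49, SE 0.202, edgeR adjusted p = 0.0604). Of 20 cell division genes, 20 fell in the first step (median -3.14) and 13 rose in the second (median 0.71), but 20 of 20 remained lower in Ins1-RFP+ than in Ngn3-low cells (median -2.33), a difference that did not pass for Cdkn2c.

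Cdkn2d, which encodes p19, took the other direction. It was at 12.1 and 8.83 CPM in the pair of Ngn3-low libraries, 20.7 and 21.7 CPM in the Ngn3-high pair and 29.8 and 21.4 CPM in the Ins1-RFP+ pair. The first step was a rise of 1.09 (SE 0.229, edgeR adjusted p = 0.00359). The second did not pass (0.36, SE 0.221, edgeR adjusted p = 0.207), and the Ins1-RFP+ and Ngn3-high libraries overlapped. It passed without Ins1-RFP+ library 2 (0.59, edgeR adjusted p = 0.0358).

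Gadd45a, which responds to DNA damage and other stress, had the sharpest peak of the 9. Its level was 62.7 and 43.4 CPM in the pair of Ngn3-low libraries, 435 and 377 CPM in the Ngn3-high pair and 47.1 and 37.9 CPM in the Ins1-RFP+ pair. It rose by 3.01 (SE 0.207, edgeR adjusted p = 5.93e-06) and fell by 3.17 (SE 0.209, edgeR adjusted p = 1.36e-05), 9.55-fold in CPM. The 2 outer groups overlapped, and their difference did not pass (-0.16, SE 0.198, edgeR adjusted p = 0.502). In RefSeq the gene overlaps the noncoding RNA E230016M11Rik, and reads of the pair cannot be told apart here because the strand setting of the counting is not given.

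Gadd45g, which acts in neural and gonadal differentiation, did not come down. It was at 47.4 and 36.2 CPM in the pair of Ngn3-low libraries, 117 and 75.3 CPM in the Ngn3-high pair and 167 and 128 CPM in the Ins1-RFP+ pair, 3 groups without overlap. It rose by 1.28 (SE 0.240, edgeR adjusted p = 0.00195) and again by 0.69 (SE 0.233, edgeR adjusted p = 0.0364). The second rise was 0.40 without Ngn3-high library 2 (edgeR adjusted p = 0.203) and 0.48 without Ins1-RFP+ library 1 (edgeR adjusted p = 0.141), so it did not pass without either. Between Gadd45a and Gadd45g the courses separate in the second step, where one fell and the other rose.

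Btg1 changed little. It was at 227 and 218 CPM in the pair of Ngn3-low libraries, 151 and 153 CPM in the Ngn3-high pair and 181 and 141 CPM in the Ins1-RFP+ pair. The fall of 0.46 in the first step (SE 0.137, edgeR adjusted p = 0.0193) did not pass when any of the 4 libraries compared was left out: it was -0.40 without Ngn3-low library 1, -0.51 without Ngn3-low library 2, -0.48 without library 1 of Ngn3-high and -0.45 without its library 2 (edgeR adjusted p = 0.0530 to 0.106). The second step did not pass (0.16, edgeR adjusted p = 0.350) and was -0.04 without Ins1-RFP+ library 1. Against Ngn3-low, Ins1-RFP+ cells stood at -0.30 (edgeR adjusted p = 0.0868), which passed without Ins1-RFP+ library 1 (-0.50, edgeR adjusted p = 0.0153).

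Btg2, another gene that p53 can switch on, was higher in each later group. Its level was 413 and 315 CPM in the pair of Ngn3-low libraries, 649 and 548 CPM in the Ngn3-high pair and 969 and 684 CPM in the Ins1-RFP+ pair. The groups did not overlap. The first step was a rise of 0.80 (SE 0.215, edgeR adjusted p = 0.0121), which did not pass without Ngn3-low library 2 (0.60, edgeR adjusted p = 0.0897) or without Ngn3-high library 1 (0.64, edgeR adjusted p = 0.0932). The second did not pass (0.55, SE 0.214, edgeR adjusted p = 0.0607). It passed under 5 of 12 alternatives, with values of 0.26 to 0.79 over all 12, and was 0.79 without Ins1-RFP+ library 2 (edgeR adjusted p = 0.00714). From Ngn3-low to Ins1-RFP+ the rise was 1.35 (SE 0.217, edgeR adjusted p = 0.000698).

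Btg2 is also an immediate early gene, one of those that cells switch on within minutes of a stimulus. In bulk, 12 of 14 immediate early genes of a list that does not hold Btg2 fell in the first step, and 12 of 14 rose in the second. Their sums were 8466 and 8645 CPM in the pair of Ngn3-low libraries, 3513 and 2699 CPM in the Ngn3-high pair and 10289 and 7658 CPM in the Ins1-RFP+ pair, against 575 to 608 CPM in the 4 single-cell groups. Their part in the bulk level of Btg2, as that of the white blood cell markers above, was not tested.

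**Figure D2:**
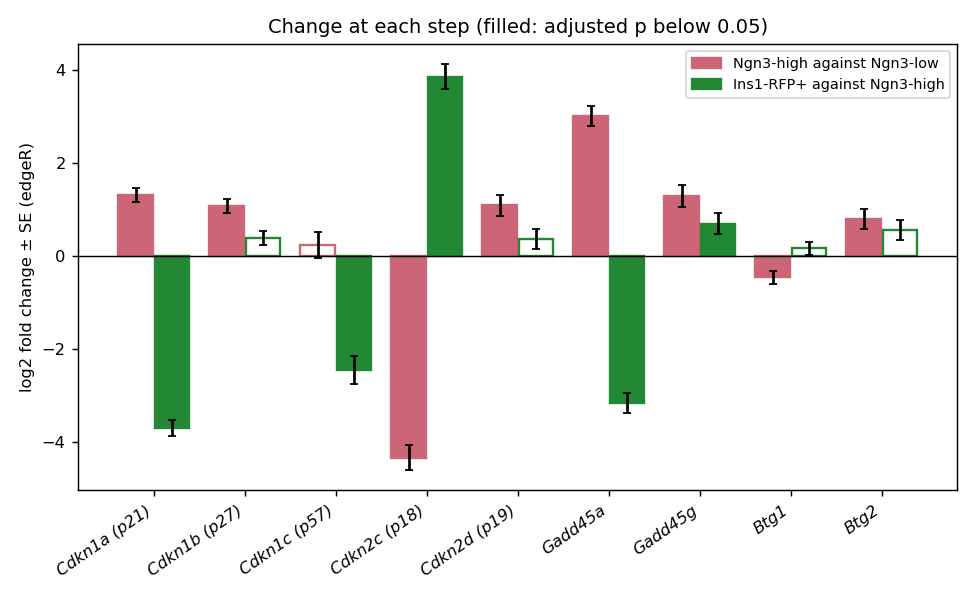
Bulk log2 fold change of each gene in the first step (Ngn3-high against Ngn3-low) and the second (Ins1-RFP+ against Ngn3-high), with standard errors from edgeR. Filled bars have an adjusted p under 0.05, and the second step is -3.72 for Cdkn1a and 3.86 for Cdkn2c.

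Levels between genes were compared per length, with RPKM values, which divide reads by gene length and library size, of the authors' deposited table, which pools the libraries of a group and so carries no error. In the authors' deposited table the order in Ngn3-high cells was Gadd45a at 336 RPKM, Cdkn1a at 311, Btg2 at 222, Cdkn1c at 129, Gadd45g at 93.2, Btg1 at 30.4, Cdkn1b at 24.2, Cdkn2d at 16.6 and Cdkn2c at 0.25 RPKM. In Ins1-RFP+ cells the authors' deposited table has Btg2 at 329.7 and Gadd45g at 149.9 RPKM, and 6 genes close together from 22.04 (Cdkn2d) to 37.8 RPKM (Gadd45a), with Cdkn2c at 3.76 RPKM. In Ngn3-low cells it has Btg2 at 127, Cdkn1a at 125 and Cdkn1c at 108 RPKM, and the other 6 at 5.07 to 41.8 RPKM.

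The partners and targets of these inhibitors moved as follows in bulk. Of 12 cyclins and cyclin-dependent kinases, 0 rose, 10 fell and 2 did not pass in the first step, with Ccnd1, the D-type cyclin of growth signals, going from 307 to 29.9 CPM (log2 -3.28, edgeR adjusted p = 4.84e-07) and Cdk1 from 106 to 9.19 CPM (-3.44, edgeR adjusted p = 4.98e-07). In the second step 5 of the 12 rose and 3 fell. Ccnd2, another D-type cyclin, rose from 48.4 to 711 CPM (3.96, edgeR adjusted p = 4.68e-06), and Ccnd3 fell from 138 to 53.5 CPM (-1.28). Of 11 Rb and E2F genes, which the kinases act on, 1 rose and 7 fell in the first step and 2 rose and 1 fell in the second. E2f8, a repressor made in dividing cells, went from 48.05 to 3.64 and then to 14.505 CPM. All 13 DNA replication genes fell in the first step (median -1.93), and 5 rose and 7 fell in the second.

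Skp2, which marks p27 for destruction, fell from 63.7 to 9.75 CPM (-2.61, edgeR adjusted p = 1.56e-05), and its cofactor Cks1b fell from 57.1 to 19.1 CPM (-1.50, edgeR adjusted p = 4.43e-05). Rnf123, a subunit of another ligase of p27, rose from 41.6 to 85.1 CPM (1.12). Over the 5 genes of p27 degradation, 1 rose, 2 fell and 2 did not pass in the first step, and 0 rose and 2 fell in the second. Among 12 genes of the p53 pathway, a list without the members, 5 rose and 4 fell in the first step (median 0.13), and 2 rose and 5 fell in the second (median -0.22). Sesn2, a stress gene that dampens growth signalling, rose from 27.02 to 183 CPM (2.84, edgeR adjusted p = 1.42e-06) and then fell to 70.5 CPM (-1.29). Sesn1 fell from 134 to 56.1 CPM (-1.18), while Zmat3 (1.06) and the cell death gene Bax (0.97) rose. Of 8 other inhibitor and antiproliferative genes, 6 were tested, and 3 rose and 1 fell in each step. Btg3 rose from 15.1 to 39.04 CPM (1.46) and fell back to 11.2 CPM (-1.72), Tob1 rose from 48.9 to 88.1 CPM (0.93), and Gadd45b rose in the second step from 11.2 to 66.2 CPM (2.61, edgeR adjusted p = 0.00270).

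Single cells gave the E13.5 step a second measurement. Each single-cell group is 1 sample without replicates, so there is no test, and the intervals below cover counting error only. A gene was counted as different when the CPM of the group's summed counts differed more than 2-fold, with 1 CPM added to each side, and was at 10 CPM or more in the higher group. In WT cells, 6 of the 9 genes were higher in Ngn3-high than in Ngn3-low cells and 0 lower, against 13.1% and 17.9% of 10452 genes. In Jmjd3-deleted cells 6 were higher and 1 lower, against 14.2% and 17.8% of 10496 genes. As in bulk, the genes were chosen with earlier results known, so these shares are no test of the group. The 6 were Cdkn1a, Cdkn1b, Cdkn2d, Gadd45a, Gadd45g and Btg2 in both genotypes, and the 1 lower was Cdkn1c. In Jmjd3-deleted cells Cdkn1b lay only just past 2-fold. With only the title numbers 1 and 5, which both sorts share, 3 of the 6 passed in WT cells. On the Ngn3-low side this rests on 10 WT cells of title number 1 and 5 of title number 5. The labels do not say what a title number marks.

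Gadd45a went from near silence to most cells. Across the 49 WT Ngn3-low cells the lowest and the median level were 0 CPM and the highest 48.01 CPM. In the 59 WT Ngn3-high cells the lowest was 0, the median 151 and the highest 1460.1 CPM. Summed counts gave 5.81 CPM (95% Poisson interval 5.01 to 6.71) and 321 CPM (315 to 326), a 55.2-fold difference, and 5.43 and 324 CPM in Jmjd3-deleted cells. At 10 CPM or more it was found in 11 of 49 and 51 of 59 WT cells (22.4%, exact interval 11.8 to 36.6%, and 86.4%, 75.02 to 94.0%).

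Btg2 was the most widespread member after the switch. It reached 10 CPM in 24 of 49 WT Ngn3-low cells (median 9.68, highest 611 CPM) and in 59 of 59 WT Ngn3-high cells (lowest 53.7, median 728, highest 1693 CPM). Summed counts gave 45.1 CPM (42.8 to 47.4) against 737 CPM (729 to 746), 16.4-fold. In Jmjd3-deleted cells the values were 48.3 and 595 CPM. For Gadd45a and Btg2 the single-cell difference was far larger than the 7.65-fold and 1.64-fold of bulk, and most of the gap was on the Ngn3-low side, where bulk had 53.1 and 364 CPM. Both libraries of that bulk group held the white blood cell and immediate early transcripts given above, and their part in the gap was not tested.

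Gadd45g was found at 10 CPM or more in 14 of 49 WT Ngn3-low cells and 49 of 59 WT Ngn3-high cells. Its summed level was 13.6 CPM (12.3 to 14.9) against 156 CPM (152 to 160), 11.5-fold, and 19.2 against 197 CPM in Jmjd3-deleted cells. The median cell was at 0 in Ngn3-low and at 126 CPM in Ngn3-high WT cells. Here too bulk gave the smaller difference, 2.30-fold.

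The inhibitors differed less between the sorts. Cdkn1a was already present at 10 CPM or more in 41 of 49 WT Ngn3-low cells, with a median of 90.3 and a highest value of 596 CPM. In WT Ngn3-high cells it was in 51 of 59, with a median of 344 and a highest value of 3308 CPM. The share of cells was much alike (83.7%, 70.3 to 92.7%, and 86.4%, 75.02 to 94.0%), and the summed level differed 3.39-fold, from 184 to 624 CPM. In Jmjd3-deleted cells it went from 202 to 733 CPM. Title number 1 gave a log2 ratio of 0.71 and title number 5 of 1.203 in WT cells, 1.61 and 0.90 in deleted cells.

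Cdkn1b went from 25.3 CPM (23.6 to 27.1) to 60.3 CPM (57.98 to 62.6) in WT cells and from 29.7 to 60.5 CPM in Jmjd3-deleted cells. The latter is only just past 2-fold, and the level differed between title numbers. In deleted Ngn3-high cells Cdkn1b stood at 73.4, 49.6 and 27.5 CPM in title numbers 1, 5 and 6. In deleted Ngn3-low cells it stood at 26.1, 34.8 and 18.2 CPM in title numbers 1, 2 and 5. It was in 30 of 49 and 42 of 59 WT cells at 10 CPM or more. Cdkn2d went from 13.9 to 38.3 CPM and from 11.99 to 44.01 CPM, and from 16 of 49 to 37 of 59 WT cells. With title numbers 1 and 5 alone, the WT log2 ratios were 0.85 for Cdkn1a, 0.76 for Cdkn1b and 0.77 for Cdkn2d, all under 2-fold, where the values over all cells were 1.76, 1.22 and 1.40. These 3 are the genes lost from the count in WT cells above.

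Cdkn2c was nearly absent from single cells. It had 147 reads over 49 WT Ngn3-low cells (4.55 CPM, 3.84 to 5.34), 5 reads over 59 WT Ngn3-high cells, 25 over 69 deleted Ngn3-low cells and 27 over 44 deleted Ngn3-high cells. It reached 10 CPM in 5, 0, 2 and 1 cells of these groups, and 0 of 59 cells allows a share of up to 6.06% by the exact interval. No fold is drawn from so few reads, and in deleted cells they were not fewer in the Ngn3-high group. The bulk Ngn3-low libraries had a mean of 13.7 CPM. Both held the white blood cell transcripts given above, and their part in that level was not tested.

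Btg1 was in nearly every cell of each group at 10 CPM or more (45 of 49, 57 of 59, 65 of 69 and 41 of 44). Its summed level went from 132 to 138 CPM between the sorts in WT cells and from 105 to 157 CPM in deleted cells. In WT cells the direction differed between title numbers 1 (-0.30) and 5 (0.45).

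**Figure D3:**
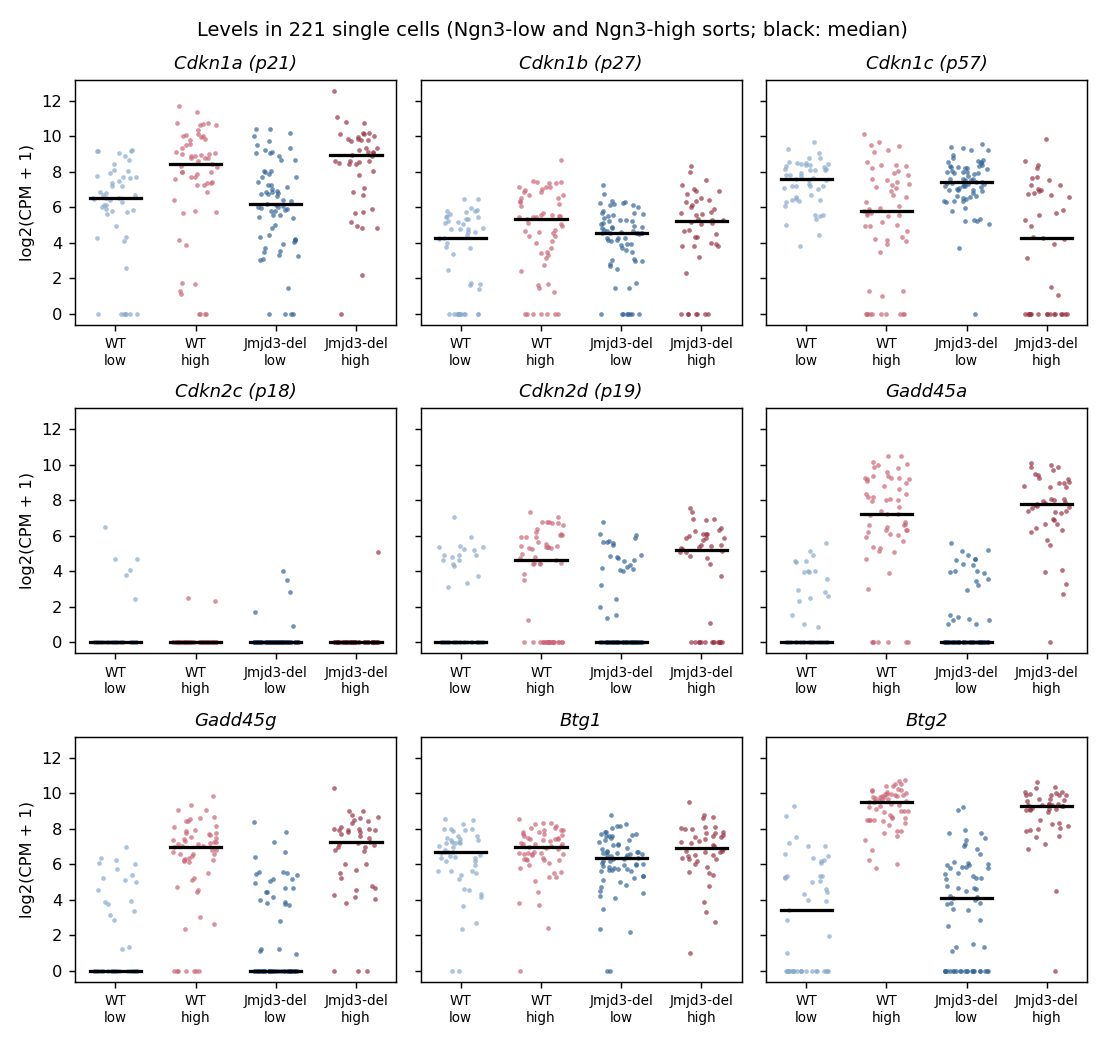
Level of each gene in the single cells, as log2(CPM + 1), for WT and Jmjd3-deleted cells of the Ngn3-low and Ngn3-high sorts. Points are cells and black bars medians. Gadd45a and Gadd45g move from mostly near 0 to mostly high, and Btg2 moves from a wide spread to mostly high. Btg1 stays level, and Cdkn1c spreads out in Ngn3-high cells.

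Cdkn1c split the Ngn3-high cells. It was at 10 CPM or more in 49 of 49 WT Ngn3-low cells (lowest 13.2, median 189, highest 830.4 CPM) but in 46 of 59 WT Ngn3-high cells (lowest 0, median 53.3, highest 1101 CPM). The summed level was 235 CPM (230.1 to 240.7) against 182 CPM (178 to 186). In WT Ngn3-low cells it ranged from 92.6 CPM in title number 3 to 368 CPM in title number 2. Neither number occurs among WT Ngn3-high cells, and with only title numbers 1 and 5 the WT log2 ratio was -0.19. Among Jmjd3-deleted cells Cdkn1c was in 68 of 69 Ngn3-low cells (median 169.9 CPM) and 25 of 44 Ngn3-high cells (median 18.6 CPM). The summed levels were 221.3 against 101 CPM, a log2 ratio of -1.13. Without the 15 deleted Ngn3-high cells of title number 5 that ratio was -0.81, and without the 18 deleted Ngn3-low cells of title number 1 it was -0.89, both under 2-fold. Without the 23 deleted Ngn3-high cells of title number 1 it was -2.54.

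Between genotypes, none of the 9 met the rule of more than 2-fold with 10 CPM or more in the higher group: 0 higher and 0 lower in Ngn3-low cells (0.963% and 1.85% of 9965 genes) and 0 higher and 0 lower in Ngn3-high cells (1.78% and 1.71% of 9612 genes). Among genes at 10 CPM or more in the higher group, the nearest to 2-fold was Cdkn1c in Ngn3-high cells, with 101 CPM in Jmjd3-deleted against 182 CPM in WT cells (log2 -0.85). It was -0.34 in title number 1 (143 against 181 CPM) and -2.56 in title number 5 (22.9 against 139.8 CPM). In title number 5 of the deleted Ngn3-high cells Cdkn1c reached 10 CPM in 4 of 15 cells, and in 13 of 16 of the WT cells. In title number 6 the levels were 59.4 CPM in 6 deleted and 213 CPM in 16 WT cells. Without the deleted cells of title number 5 the ratio was -0.53, without those of title number 1 it was -2.26 and without those of title number 6 it was -0.74, so its size differed with the title number left out. With 1 sample a group, spread between title numbers and an effect of genotype cannot be told apart. The other 8 genes had log2 ratios from -0.31 (Btg2) to 0.72 (Cdkn2c, on 27 and 5 reads) in Ngn3-high cells. In Ngn3-low cells the 8 genes apart from Cdkn2c lay between -0.33 (Btg1) and 0.47 (Gadd45g), and Cdkn2c, under 10 CPM in both groups, stood at -1.91.

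Per length, the balance among the Cip/Kip genes in single cells shifted as in bulk. Cdkn1a made up 43.05% of their length-scaled reads in WT Ngn3-low and 75.2% in WT Ngn3-high cells, and 46.6% and 85.4% in Jmjd3-deleted cells. Cdkn1c went from 54.5% to 21.7% in WT and from 50.5% to 11.6% in deleted cells. Cdkn1b stayed between 2.48% and 3.05% in the 4 groups. Every cell had at least 1 of the 3 genes at 10 CPM or more, and all 3 were found together in 25 of 49, 25 of 59, 44 of 69 and 17 of 44 cells in the order of groups used above.

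Which of the inhibitors goes with Neurog3 was asked within each group, so that the difference between the sorts does not enter. Spearman's rho was taken across the cells of a group, as a description with no test. Cells of a group share their sort, and part of them their title number. Neurog3 itself was at 10 CPM or more in 27 of 49 WT Ngn3-low cells (median 27.6, highest 493 CPM) and 49 of 59 WT Ngn3-high cells (median 1214, highest 4103 CPM), and in 34 of 69 and 40 of 44 Jmjd3-deleted cells. Over 9271 other genes found at 10 CPM or more in at least 25% of the cells, the mean of the 4 rho values with Neurog3 had a median of -0.01, with 5% of genes under -0.18 and 5% above 0.19.

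Cdkn1a and Gadd45g went with Neurog3 in every group. For Cdkn1a rho was 0.69 (WT) and 0.51 (deleted) among Ngn3-low cells, and 0.36 (WT) and 0.42 (deleted) among Ngn3-high cells, a mean of 0.50 and place 7 of 9271 genes. For Gadd45g it was 0.40 and 0.25 among Ngn3-low and 0.66 and 0.59 among Ngn3-high cells, a mean of 0.47 and place 10. Limited to Ngn3-low cells with Neurog3 at 10 CPM or more, Cdkn1a stood at 0.44 (WT) and 0.75 (deleted). Gadd45g stood at 0.51 and 0.72 under that limit. Among the 27 WT Ngn3-low cells with Neurog3 at 10 CPM or more, 26 had Cdkn1a at that level, against 15 of the 22 without. For Gadd45g the same counts were 12 of 27 and 2 of 22. In WT Ngn3-low cells Cdkn1a also had a rho of 0.46 with the number of reads of a cell, and Neurog3 one of 0.24. In the other 3 groups the rho of Cdkn1a with reads was 0.07 to 0.11. The percent of a cell's reads from ERCC spike-ins had, in deleted Ngn3-low cells, a rho of 0.31 with Neurog3, 0.35 with Cdkn1a, 0.35 with Cdkn1c and 0.29 with Btg2. In deleted Ngn3-high cells it had a rho of 0.46 with Cdkn1c and 0.22 with Neurog3. The part of reads and spike-in share in the relations with Neurog3 was not tested.

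Btg2 (rho 0.14 and 0.35 in the WT and deleted Ngn3-low groups, 0.32 and 0.51 in the Ngn3-high groups, mean 0.33, place 98) and Cdkn1c (-0.01 and 0.39, then 0.16 and 0.54, mean 0.27, place 191) followed. Limited to Ngn3-low cells with Neurog3 at 10 CPM or more, Cdkn1c stood at -0.29 (WT) and 0.12 (deleted). Gadd45a ranged widely, with 0.01 and -0.15 in the Ngn3-low groups, where few cells held it, and 0.32 and 0.75 in the Ngn3-high groups. Its mean was 0.23 and its place 274. Btg1 was near 0 in every group (-0.06 to 0.16, place 3071). Cdkn2d had a mean of -0.14 (place 8308), with -0.22 and -0.24 in the Ngn3-high groups. Cdkn2c was in too few cells to be ranked.

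Cdkn1b ran against Neurog3 in Ngn3-high cells. Its rho was 0.06 and 0.18 in WT and deleted Ngn3-low cells, but -0.36 in WT and -0.74 in deleted Ngn3-high cells, a mean of -0.21 and place 9020 of 9271. Thus p21 and p27, inhibitors of the same family, had rho values of opposite sign with Neurog3 in both Ngn3-high groups. Across the 4 groups, Cdkn1a and Cdkn1b had a rho of -0.50 to 0.02 with each other (mean -0.21). Limited to cells with Neurog3 at 10 CPM or more, WT Ngn3-high cells gave -0.24 for Cdkn1b, 0.20 for Cdkn1a, 0.07 for Gadd45a and 0.50 for Gadd45g, so that of the 4 genes with a rho of 0.3 or more in that group (these without Cdkn1b, and Btg2, now 0.17) only Gadd45g kept one. In deleted Ngn3-high cells the same limit gave -0.77 for Cdkn1b. Centred within title numbers, Cdkn1b stood at -0.40 and -0.69 in the WT and deleted Ngn3-high groups.

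A score of 14 immediate early genes, formed as their mean log2(CPM + 1), moved with these values in WT Ngn3-high cells. Its rho was -0.46 with Neurog3, -0.34 with Cdkn1a, -0.48 with Gadd45g and -0.35 with Gadd45a, against 0.28 with Cdkn1b and 0.41 with Cdkn2d. In deleted Ngn3-high cells it was -0.25 with Neurog3, -0.16 with Cdkn1a, -0.17 with Gadd45g, -0.31 with Gadd45a, 0.30 with Cdkn1b and 0.46 with Cdkn2d. In the Ngn3-low groups its rho with Neurog3 was -0.03 (WT) and 0.31 (deleted), and with Cdkn1a 0.15 and 0.02. Its part in the relations with Neurog3 was not tested.

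**Figure D4:**
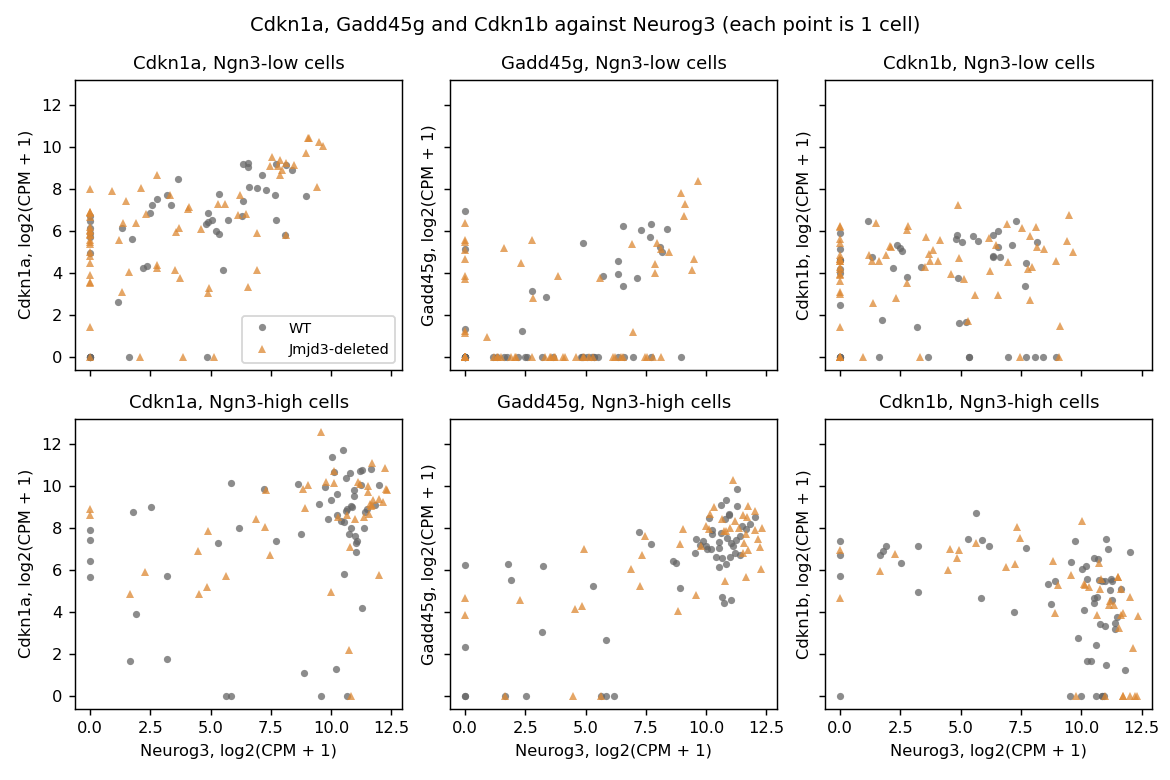
Cdkn1a, Gadd45g and Cdkn1b against Neurog3 in single cells, both as log2(CPM + 1), with Ngn3-low cells above and Ngn3-high cells below. Circles are WT cells and triangles Jmjd3-deleted cells. Cdkn1a climbs with Neurog3 in Ngn3-low cells (rho 0.69 in WT, 0.44 among those with Neurog3 at 10 CPM or more). Cdkn1b is lower in the Ngn3-high cells with most Neurog3 (rho -0.36 and -0.74).

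Among the members themselves, the pair that went together most was Cdkn1a with Gadd45g (mean rho 0.38, 0.26 to 0.49 over the 4 groups), then Cdkn1a with Gadd45a (0.27) and with Btg2 (0.26). The pair furthest apart was Cdkn1b with Gadd45a (-0.27, -0.58 to 0.04), and Cdkn1b went with Cdkn2d (0.24, 0.12 to 0.34). There were 36 pairs in all. Cdkn1a, Gadd45a, Gadd45g and Btg2 had positive means with one another in all 6 of their pairs, and Cdkn1b had negative means with all 4. The negative means came from the Ngn3-high groups, where Cdkn1b had a rho of -0.58 to -0.21 with these genes. In the Ngn3-low groups it had -0.11 to 0.15. Gadd45a with Gadd45g stood at -0.07 (WT) and -0.03 (deleted) in Ngn3-low cells.

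The members were also set against a division score, the mean log2(CPM + 1) of 20 cell division genes. Mki67, a marker of cells in cycle, was at 10 CPM or more in 23 of 49 WT and 34 of 69 deleted Ngn3-low cells but in 3 of 59 and 1 of 44 Ngn3-high cells, so few Ngn3-high cells scored high. In WT Ngn3-low cells the highest rho with the score were those of Cdkn2c (0.50) and Cdkn2d (0.36), both INK4 genes, followed by Cdkn1b (0.30). In deleted Ngn3-low cells these genes stood at 0.18, 0.24 and 0.02. Cdkn2c reached 10 CPM in only 5 of the 49 WT cells, and its rho with the number of genes found per cell was 0.41 there. The rho with the score was not taken over all genes, so no background is given. Cdkn1a was at -0.16 and -0.23 in the WT and deleted Ngn3-low groups, and Neurog3 at -0.17 and -0.33. In WT Ngn3-high cells the rho with the score was 0.29 for Cdkn1a, 0.38 for Gadd45a, 0.37 for Btg2 and 0.01 for Neurog3. In deleted Ngn3-high cells these were 0.04, 0.06, 0.13 and 0.23, and the value furthest from 0 was that of Btg1 (-0.41).

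**Figure D5:**
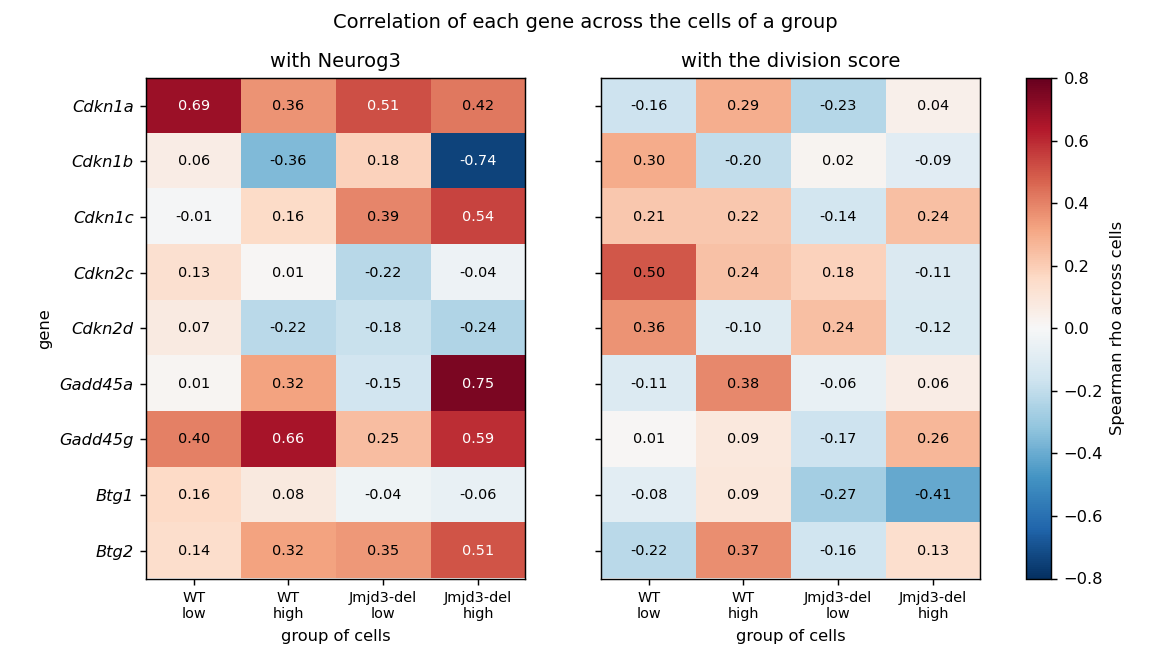
Spearman's rho of each gene across the cells of a group, with Neurog3 on the left and with the division score on the right. Rows are genes and columns the 4 groups of 44 to 69 cells. Cdkn1a and Gadd45g are above 0 with Neurog3 in all 4, and Cdkn1b is lowest in the Ngn3-high groups.

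The genes most like each member were named by the mean of the 4 rho values. For Cdkn1a they were Trp53cor1 (0.50), Spint2 (0.50) and Rsad2 (0.50), with Neurog3 in the fourth place. Trp53cor1 is a noncoding RNA gene on chromosome 17 at 29057474 to 29079126, 11852 bases from Cdkn1a with 0 annotated genes between them. For Gadd45g they were Neurog3 (0.47), Cbfa2t3 (0.46) and Lfng (0.44), a modifier of Notch receptors. For Cdkn1b they were Pax6 (0.44), a factor of islet cells, Nol4 (0.37) and Fxyd6 (0.37). Cdkn2d stood nearest to Mlxipl (0.35), Fzr1 (0.34), an activator of the ubiquitin ligase that keeps cells in G1, and Bex2 (0.32). For Cdkn1c they were Ptms, Top1 and Nr2f6 (0.32 to 0.38), for Gadd45a Rps15a, Tmsb4x and Ppp1r14a (0.43 to 0.44), for Btg1 Grin3a, Sgip1 and Calcoco1 (0.31 to 0.34), and for Btg2 Amotl2, Dbn1 and Cbfa2t2 (0.36 to 0.37). Cdkn2c, which rests on few reads, stood nearest to Zwilch, Kif20a and Spc24 (0.28 to 0.33), genes of cell division.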

How the data were processed

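The analysis used 6 bulk RNA libraries and 4 groups of single-cell libraries. The 31 chromatin samples were not analysed here. The authors deposited read counts per gene, whole numbers without normalization, and RPKM values, which for bulk pool the libraries of a group. Per the labels' protocols, bulk libraries were poly(A)-selected and made with a directional kit, and single cells were made by Smart-seq2 with ERCC spike-ins. Build mm10 and the tools HTSeq 0.6.0, TopHat2 2.1.0 with Bowtie2, and DESeq 1.20.0 are listed in the submitters' processing notes. The strand setting of the counting is not given in the sources used here. The 92 ERCC rows were left out of library sizes.

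Bulk counts were fitted with edgeR 4.0.16 (R 4.3.3; TMM, filterByExpr, quasi-likelihood test over all 6 libraries, Benjamini-Hochberg adjustment, threshold 0.05), with DESeq2 1.42.0 as an alternative, and SE is the fold change divided by the square root of F. Single-cell counts were summed per group, with exact Poisson and Clopper-Pearson 95% intervals (scipy 1.17.1), which cover counting error only. Scripts were tested on simulated counts. The members and gene lists were chosen with earlier results of these data known. Named genes were the 9 members, Neurog3, Kdm6b, up to 4 passing genes per list by size of change with 10 CPM or more in the higher group, and the 3 genes most like each member.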

Additional observations from a re-analysis of the deposited data

How the results depend on the processing

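No direction that passed a threshold turned under any alternative run. Of 324 bulk values for single genes under alternatives, 302 stayed on their side of the threshold, 13 newly passed and 9 no longer passed. In the second step, 2 members rose as reported, against 4 with DESeq2, 4 with median ratio size factors, 1 with total counts only and 4 with no filter on low counts. Leaving out 1 library gave 1 to 5 rises and 4 to 8 calls in all, the latter without Ins1-RFP+ library 2. In the first step 2 members fell, and 1 to 2 with 1 library left out. Between Ins1-RFP+ and Ngn3-low, 2 fell, against 4 with total counts only, a scaling that also moved the median of all genes from -0.08 to -0.24. The labels do not say what bulk libraries with the same replicate number have in common. Their deviations correlated at 0.0935, 0.107 and 0.0895. With that number as a replicate block, 8, 6 and 6 members passed in the 3 comparisons, against 8, 5 and 6, with Btg2 added in the second step (0.53, edgeR adjusted p = 0.00955).

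In single cells, the 6 members higher in WT Ngn3-high cells became 3 with only the shared title numbers, and the median over cells in place of the sum gave 1 lower there and 1 lower between deleted and WT Ngn3-high cells, where the sum gave 0. Leaving out 1 title number gave 0 to 1 lower in the deleted sorts and 0 to 1 lower between genotypes in Ngn3-high cells. With only cells at 10 CPM or more of Neurog3, members with a rho of 0.3 or more went from 4 to 1 in WT Ngn3-high cells, those at -0.3 or less from 1 to 0 there, and from 0 to 1 in each Ngn3-low group. Plain counts, without scaling by length, gave Cdkn1a, Cdkn1b and Cdkn1c shares of 47.3%, 10.6% and 42.1% in bulk Ngn3-low and 61.97%, 11.8% and 26.2% in bulk Ngn3-high, with Cdkn1a at 18.96% and Cdkn1b at 61.9% in Ins1-RFP+. The same shares in single cells were 41.4%, 5.69% and 52.9% in WT Ngn3-low, 72.0%, 6.95% and 21.04% in WT Ngn3-high, 44.6%, 6.55% and 48.9% in deleted Ngn3-low, and 81.9%, 6.77% and 11.3% in deleted Ngn3-high cells. The cause of these changes was not tested. In single cells, 3 reads in a group equal 0.0575 to 0.0930 CPM.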
